A study of Mus musculus with 14 samples.

Results

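NF-kB is a small family of dimeric transcription factors, and several of its own subunits and inhibitors are among the genes it switches on. Described here are 10 such genes in mouse macrophages: the subunit genes Nfkb1, Nfkb2, Rel and Relb, the inhibitor genes Nfkbia, Nfkbiz, Bcl3 and Tnfaip3, and the target genes Birc3 and Ier3. They were chosen by name, and every microarray probe whose RefSeq accession belongs to one of them was taken, which gave 12 probes. The array has 55634 usable probes, and 21356 genes on it received a symbol. Of the 10 genes, 9 passed the filter on dim probes and were tested among 15833 genes. The probe of Rel and a second probe of Nfkb1 were not well above background on any of the 14 arrays and have no level or fold here.

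The cells were macrophages grown for 1 week with M-CSF from bone marrow of female C57BL/6 mice aged 8 weeks. All mice carried LysM-Double-Cre, so Cre recombinase driven by the lysozyme M gene, which is active in the myeloid lineage, was present in every group, and the genotypes differed in the TFEB transgene. Transgene- cells are called wild-type and transgene+ cells transgenic. The promoter of the transgene and whether each replicate is a separate animal are not given in the labels. Cells were kept for 24 h in plain DMEM, called control, or in DMEM with medium conditioned by EO771 mammary tumour cells plus tumour lysate, called tumour material. The groups were wild-type control (3 replicates on 4 arrays), wild-type tumour (3 on 4), transgenic control (3 on 3) and transgenic tumour (2 on 3). Transgenic tumour replicate 1 is not analysed here. The genes with a measured level served to ask how tumour material moves this feedback circuit in each genotype, and what the transgene moves in each medium.

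As background, resting cells hold NF-kB dimers in the cytoplasm, bound by IkB proteins such as the product of Nfkbia. Signals from Toll-like receptors or tumour necrosis factor activate the IKK kinases, which mark IkB for destruction, and the freed dimers enter the nucleus and bind kappaB motifs. A second, slower route matures the Nfkb2 product and acts through Relb. Macrophages use both routes for inflammatory genes, and newly made Nfkbia, Tnfaip3 and related products then damp the signal.

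Promoter sequences are shown first, and the kappaB motif is the sequence that NF-kB dimers bind. Promoter windows (RefSeq, GRCm38.p6) run from 250 bases before to 50 bases after an annotated start site. They were given for 7 of the 10 genes, in 10 windows. Nfkb1, Relb and Nfkbiz are named only. Each sequence is written 5′ to 3′ in the direction of transcription, and capitals mark matches to the kappaB consensus on either strand.
Nfkbia, chr12:55492598-55492897, minus strand: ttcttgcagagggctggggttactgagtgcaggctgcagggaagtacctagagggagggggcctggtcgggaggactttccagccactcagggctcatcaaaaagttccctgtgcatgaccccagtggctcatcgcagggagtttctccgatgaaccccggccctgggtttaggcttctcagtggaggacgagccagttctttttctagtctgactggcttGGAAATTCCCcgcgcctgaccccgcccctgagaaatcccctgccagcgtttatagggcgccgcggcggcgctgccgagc
Tnfaip3, chr10:19015361-19015660, minus strand: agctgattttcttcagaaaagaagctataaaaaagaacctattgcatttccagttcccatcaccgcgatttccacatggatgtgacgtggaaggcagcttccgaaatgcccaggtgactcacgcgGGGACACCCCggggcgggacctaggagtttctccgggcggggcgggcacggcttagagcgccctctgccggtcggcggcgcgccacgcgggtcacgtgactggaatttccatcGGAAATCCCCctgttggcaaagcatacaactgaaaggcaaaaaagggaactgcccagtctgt
Bcl3, chr7:19822706-19823005, minus strand: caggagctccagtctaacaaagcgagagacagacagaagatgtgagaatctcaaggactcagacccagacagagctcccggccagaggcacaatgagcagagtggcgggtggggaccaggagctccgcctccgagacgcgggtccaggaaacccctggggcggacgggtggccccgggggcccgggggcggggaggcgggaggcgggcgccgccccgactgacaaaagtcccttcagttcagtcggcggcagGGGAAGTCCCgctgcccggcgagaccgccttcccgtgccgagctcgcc
Nfkb2, chr19:46304487-46304786, plus strand: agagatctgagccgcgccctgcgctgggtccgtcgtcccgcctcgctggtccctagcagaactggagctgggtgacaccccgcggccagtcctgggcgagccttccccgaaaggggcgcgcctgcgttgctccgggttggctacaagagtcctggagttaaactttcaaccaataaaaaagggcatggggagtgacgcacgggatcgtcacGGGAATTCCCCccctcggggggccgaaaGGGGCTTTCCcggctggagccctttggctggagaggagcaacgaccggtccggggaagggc
Ier3, chr17:35821463-35821762, plus strand: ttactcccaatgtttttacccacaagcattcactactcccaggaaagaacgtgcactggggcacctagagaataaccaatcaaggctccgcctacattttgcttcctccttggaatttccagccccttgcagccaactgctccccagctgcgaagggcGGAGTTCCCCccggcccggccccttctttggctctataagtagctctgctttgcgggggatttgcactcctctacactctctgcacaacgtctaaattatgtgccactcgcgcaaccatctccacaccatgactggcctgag
Birc3, chr9:7873121-7873420, minus strand: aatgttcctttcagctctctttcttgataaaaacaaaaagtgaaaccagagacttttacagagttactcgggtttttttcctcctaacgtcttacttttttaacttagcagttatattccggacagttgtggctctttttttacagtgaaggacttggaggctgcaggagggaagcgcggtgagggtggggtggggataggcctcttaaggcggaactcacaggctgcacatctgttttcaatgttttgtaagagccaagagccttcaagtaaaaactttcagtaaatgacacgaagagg

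The consensus is 10 bases long. It was found in 8 of the 10 windows and in 6 of the 7 genes, against 1480 of 32851 windows (4.51%) and 1388 of 27025 genes (5.14%) over all mouse promoters of this length. In the Nfkbia window the match begins 29 bases before the start site, in the Ier3 window 92 bases before it, and in the Bcl3 window at base 2 after it. The Tnfaip3 window holds matches 125 and 12 bases before the start, and the window at its other annotated start has none. In the first Nfkb2 window, overlapping matches begin 39 and 38 bases before the start and another begins 11 bases before it. More than 1 separate match is found in 0.167% of all windows. The windows at the other Nfkb2 starts also hold matches, and these windows overlap, so that the match at base 10 after 1 start is the same stretch as that 225 bases before the other, and the Rel window holds an overlapping pair 92 and 91 bases before the start. The Birc3 window has none, which says only that these letters are not in this window. A match is a description of the sequence and was not tested as a binding site. The genes were chosen by name as NF-kB genes, so the share with a match is not read as a result about their changes. Rel, which has no level here, is among the genes with a match.

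**Figure D1:**
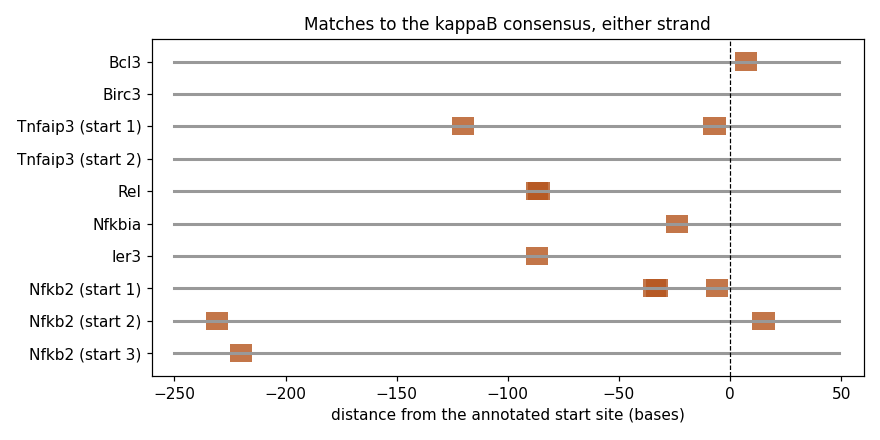
Matches to the kappaB consensus (coloured boxes, either strand; darker where matches overlap) in the 10 promoter windows of 7 of the genes, against distance from the annotated start site in bases (dashed line). Matches lie in 8 of the windows, within 50 bases of the start for Bcl3, Nfkbia, Tnfaip3 and Nfkb2, and the Birc3 window has none.

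Values are log2 of a probe's processed signal over its array's 75th percentile, so 0 is the level of that percentile and 1 unit is a 2-fold step. Probes differ in brightness for reasons of sequence, so a level is compared between groups and never between genes. Between 35.5% and 40.2% of spots were well above background on an array, and none was saturated. Arrays of a group correlated at 0.979 to 0.994 over the genes tested, except transgenic control replicate 1, which correlated at 0.959 and 0.957 with replicates 2 and 3. Replicate 3 of 3 groups was measured on a repeat array. Both arrays were averaged for the levels given here, while the fits took each array singly. The arrays lie on 2 slides, and 3 transgenic arrays share slide column 4, those of control replicates 1 and 2 and the second array of tumour replicate 3. On these arrays the root mean square of the scanner software's multiplicative detrending was 0.259, 0.253 and 0.331, against 0.0964 to 0.126 on the others. That second array had the most spots marked as uneven (270). It correlated at 0.980 with the first array of its replicate, which correlated at 0.992 with transgenic tumour replicate 2. Tfeb read 0.80 to 0.97 in wild-type control and 0.84 to 1.35 in transgenic control replicates, which overlap (difference 0.31, limma adjusted p = 0.164). With tumour material it read −0.73 to −0.62 in wild-type and −0.14 and −0.01 in transgenic replicates (difference 0.69, adjusted p = 0.0264). The labels do not say whether the Tfeb probe reads the transgene's transcript.

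Of 9 macrophage markers, 8 were above background on every array. The summed level of all 9 was 1740 to 2538 times the 75th percentile in wild-type control and 2093 to 2355 in wild-type tumour arrays. It was 1480 to 1785 in transgenic control and 1946 to 2057 in transgenic tumour arrays. With tumour material 4 of the 8 rose and 1 fell in wild-type cells and 3 rose in transgenic cells, and Itgam and Cd14 were lower in transgenic cells in both media. Of 8 neutrophil and granulocyte precursor markers tested, tumour material lowered 7 in wild-type and 8 in transgenic cells. Ngp was above background on no tumour array and passed the filter only through the control groups, so its fall follows from the filter. It was at least 30.0-fold lower in wild-type and 39.1-fold lower in transgenic cells. The summed level of the 9 such markers with a probe, tested or not, was 226 to 248 in wild-type control and 53.3 to 90.9 in wild-type tumour arrays. It was 176 to 568 in transgenic control and 29.5 to 35.1 in transgenic tumour arrays. In control medium 3 of the 8 (Mpo, Elane and Ctsg) were higher in transgenic cells, and with tumour material 2 (S100a8 and S100a9) were lower. Of 5 fibroblast markers tested, Lum and Dcn rose with tumour material in wild-type cells and Lum in transgenic cells, while transgenic cells had lower Col3a1 in control medium and lower Lum with tumour material. Lum was above background on no control array and passed the filter only through arrays with tumour material, so its rise follows from the filter. It was at least 33.7-fold higher in wild-type and 2.75-fold higher in transgenic cells. Col3a1 was above background on 1 of 3 transgenic control arrays. The summed level of all 6 fibroblast markers, tested or not, was 1.39 to 23.4 in wild-type control and 32.1 to 43.3 in wild-type tumour arrays. It was 0.936 to 9.77 in transgenic control and 6.50 to 9.19 in transgenic tumour arrays. Of the dendritic cell markers, 1 of 2 tested (Clec9a) was called higher in both genotypes, but it was above background on no control array and passed the filter only through the tumour groups (at least 1.79-fold and 2.49-fold higher). The only B cell marker tested (Cd79b) fell in both. Among T and NK cell markers 1 of 2 tested (Cd4) was higher in transgenic control cells and fell with tumour material there, and none of 6 epithelial markers was above background on any array. Over all genes tested, 23.2% were called higher with tumour material in wild-type and 15.1% in transgenic cells, and the shares called lower are not given. Between genotypes, 5.24% were lower and 3.58% higher in transgenic cells in control medium, and 2.56% and 1.97% with tumour material. Marker counts are not read as a result against these shares. The part of other cell types in the results below was not tested, and in bulk RNA fewer cells of a type and less RNA per cell cannot be told apart.

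Tumour material raised all 9 genes tested in both genotypes. In wild-type cells 9 of 9 rose, where 23.2% of all genes tested were called higher, and in transgenic cells 9 of 9 rose, where 15.1% were. The median change was 1.51 (log2) over the 9 genes in wild-type cells against 0.05 over all genes, and 1.40 against 0.06 in transgenic cells. For each of the 9 genes every tumour replicate lay above every control replicate of its genotype, which held for 32.4% of all genes in wild-type and 29.5% in transgenic cells. Ier3 changed most, and the subunit genes and Bcl3 changed least in wild-type cells. Values below are for replicates 1, 2 and 3 in that order, with replicates 2 and 3 for the transgenic tumour group. All adjusted p-values are from limma with Benjamini-Hochberg adjustment over all genes tested.

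**Figure D2:**
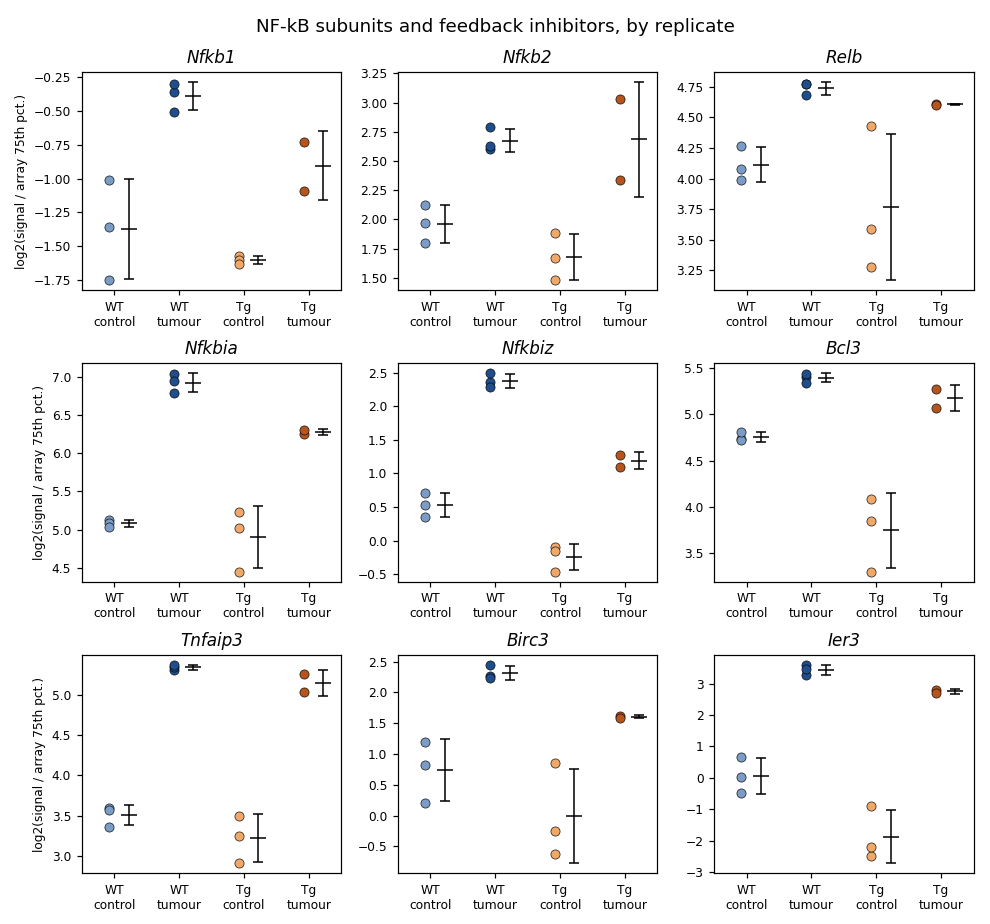
Level of each gene, as log2 signal over the array's 75th percentile, in every replicate (points) of the 4 groups, with the mean and SD of the group (bars). Each panel has its own axis, and every tumour replicate lies above every control replicate of its genotype in all 9 panels.

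Among the subunit genes, Nfkb1 encodes a precursor that is cut to a DNA-binding subunit and also acts as an inhibitor while uncut. Nfkb1 read −1.01, −1.36 and −1.75 in wild-type control and −0.36, −0.30 and −0.51 in wild-type tumour replicates. In transgenic cells it read −1.57, −1.60 and −1.63 in control and −0.73 and −1.09 with tumour material. The control levels overlapped between genotypes, each tumour group stood above the controls of its own genotype, and transgenic tumour replicate 3 lay just below wild-type control replicate 1. Nfkb1 rose by 1.04 in wild-type cells (SE 0.16, adjusted p = 0.000367) and by 0.85 in transgenic cells (SE 0.21, adjusted p = 0.0126). Without the arrays in slide column 4 the transgenic rise was 0.61 and no longer called (adjusted p = 0.135).

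Nfkb2 encodes the precursor matured in the slower, alternative route, and its first promoter window above holds a pair of separate kappaB stretches. Nfkb2 read 2.12, 1.97 and 1.80 in wild-type control and 2.60, 2.79 and 2.63 in wild-type tumour replicates, with a gap between the groups. In transgenic cells it read 1.67, 1.88 and 1.48 in control and 2.34 and 3.03 with tumour material. The last value averages arrays that disagreed and that the fit took singly, 2.33 on the first and 3.73 on the repeat in slide column 4. That gap of 1.40 is the largest between repeat arrays for any of the 9 genes. The rise was 0.74 in wild-type cells (SE 0.27, adjusted p = 0.0453), a call that held in 15 of 27 alternative settings. It was 1.22 in transgenic cells (SE 0.35, adjusted p = 0.0238) and 0.85 without the column 4 arrays (adjusted p = 0.00315). Without transgenic tumour replicate 3 it was 0.70 (adjusted p = 0.0372). The call was lost in 2 of 26 settings, without transgenic control replicate 3 (1.17, adjusted p = 0.1000) and on slide 2 alone (1.20, adjusted p = 0.126).

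Relb encodes the partner subunit of the alternative route and is itself a known NF-kB target. Relb read 4.08, 3.99 and 4.27 in wild-type control and 4.77, 4.68 and 4.77 in wild-type tumour replicates. In transgenic cells it read 4.43, 3.28 and 3.59 in control and 4.61 and 4.60 with tumour material. Transgenic control replicate 1 lay above all wild-type controls while replicates 2 and 3 lay below them. The rise was 0.60 in wild-type cells (SE 0.20, adjusted p = 0.0339), called in 11 of 27 alternative settings, and 0.85 in transgenic cells (SE 0.26, adjusted p = 0.0330), called in 15 of 26. A second Relb probe moved the same way, from 2.79, 2.86 and 2.93 to 3.60, 3.65 and 3.66 in wild-type cells (difference 0.77, adjusted p = 0.00102 over all probes). On that probe the transgenic rise was 0.76 (adjusted p = 0.00976).

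Nfkbia encodes IkB-alpha, the classic cytoplasmic inhibitor, which NF-kB makes anew after each activation. Nfkbia read 5.12, 5.09 and 5.03 in wild-type control and 7.04, 6.94 and 6.79 in wild-type tumour replicates. Transgenic replicates read 5.23, 5.02 and 4.45 in control and 6.25 and 6.31 with tumour material. Controls overlapped between genotypes, and both transgenic tumour replicates lay between the controls and the wild-type tumour replicates. Nfkbia rose 3.54-fold in wild-type cells (95% interval 2.98 to 4.20, adjusted p = 2.76e-07) and 3.07-fold in transgenic cells (2.45 to 3.84, adjusted p = 1.19e-05). Both calls held under every alternative setting run.

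Nfkbiz encodes IkB-zeta, a nuclear member of the inhibitor family that macrophages need to switch on a set of late genes including Il6. Nfkbiz read 0.35, 0.53 and 0.71 in wild-type control and 2.36, 2.29 and 2.49 in wild-type tumour replicates. It read −0.09, −0.16 and −0.46 in transgenic control and 1.28 and 1.10 in transgenic tumour replicates. The 4 groups did not overlap, in the order wild-type tumour, transgenic tumour, wild-type control, transgenic control. Nfkbiz rose 3.56-fold in wild-type cells (95% interval 2.93 to 4.33, adjusted p = 7.85e-07) and 2.63-fold in transgenic cells (2.04 to 3.40, adjusted p = 0.000107). These calls, too, held under every alternative setting run.

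Bcl3 encodes another nuclear IkB-like protein, which binds DNA-bound subunit dimers that lack an activation domain. Bcl3 read 4.73, 4.72 and 4.81 in wild-type control and 5.41, 5.44 and 5.34 in wild-type tumour replicates. In transgenic cells it read 4.09, 3.30 and 3.85 in control and 5.28 and 5.07 with tumour material. The groups again did not overlap, and the transgenic controls were both lowest and most spread. Bcl3 rose by 0.62 in wild-type cells (SE 0.16, adjusted p = 0.00845) and by 1.36 in transgenic cells (SE 0.21, adjusted p = 0.00052).

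Tnfaip3 encodes A20, an enzyme that edits ubiquitin chains on signalling proteins upstream of the IKK kinases. Tnfaip3 read 3.59, 3.57 and 3.36 in wild-type control and 5.31, 5.34 and 5.37 in wild-type tumour replicates. It read 2.91, 3.25 and 3.50 in transgenic control and 5.26 and 5.03 in transgenic tumour replicates. The genotypes overlapped in control medium, and with tumour material both transgenic values lay just under the wild-type ones. Tnfaip3 rose 3.66-fold in wild-type cells (95% interval 2.95 to 4.53, adjusted p = 1.29e-06) and 3.67-fold in transgenic cells (2.77 to 4.85, adjusted p = 2.23e-05).

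Birc3 encodes a ubiquitin ligase of the inhibitor-of-apoptosis family that acts in the receptor complexes feeding NF-kB. Birc3 read 0.82, 0.20 and 1.19 in wild-type control and 2.27, 2.23 and 2.45 in wild-type tumour replicates. In transgenic cells it read 0.86, −0.62 and −0.25 in control and 1.62 and 1.59 with tumour material. Both control groups were widely spread and both tumour groups tight. Birc3 rose by 1.51 in wild-type cells (SE 0.30, adjusted p = 0.00188) and by 1.58 in transgenic cells (SE 0.39, adjusted p = 0.0115). The transgenic call was lost without transgenic control replicate 3 (1.21, adjusted p = 0.134) and without transgenic tumour replicate 3 (1.66, adjusted p = 0.0678). Birc2, its close relative in the same complexes, did not pass the test in wild-type cells (0.29, adjusted p = 0.473) or in transgenic cells (0.04, adjusted p = 0.952).

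Ier3 is an immediate early gene that acts in cell survival and stress responses. Ier3 read 0.65, −0.49 and 0.03 in wild-type control and 3.58, 3.26 and 3.47 in wild-type tumour replicates. It read −0.91, −2.49 and −2.22 in transgenic control and 2.81 and 2.70 in transgenic tumour replicates. The 4 groups did not overlap. On the array of transgenic control replicate 2 the probe was not well above background, so 2 of 3 arrays measured it there. Ier3 rose 10.5-fold in wild-type cells (95% interval 6.49 to 16.9, adjusted p = 6.46e-06) and 28.9-fold in transgenic cells (15.5 to 53.9, adjusted p = 7.34e-06). By size of change it stood at rank 203 of 15833 genes in wild-type and rank 72 in transgenic cells.

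**Figure D3:**
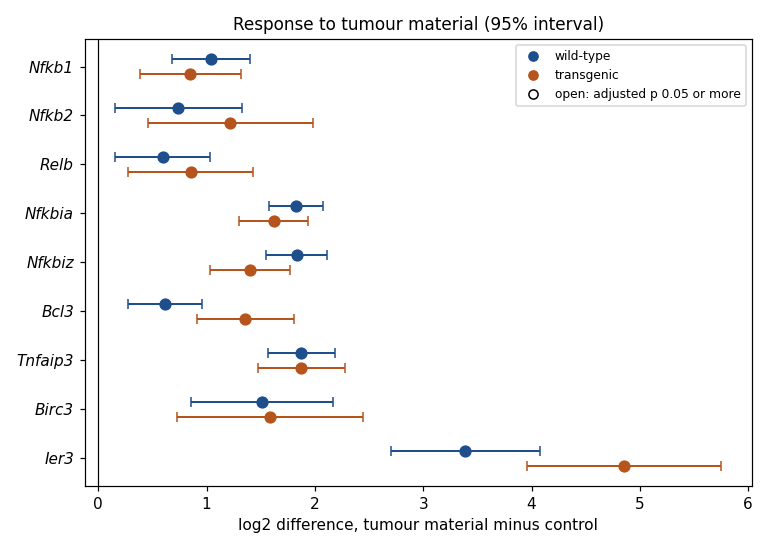
Change with tumour material (tumour minus control, log2) for the 9 genes tested in wild-type and transgenic cells, as limma estimates with 95% intervals. All 18 intervals lie above 0 and all adjusted p-values are under 0.05. The Ier3 changes are the largest, 3.39 and 4.85.

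In control medium the transgene went with lower Nfkbiz, Bcl3 and Ier3. These 3 of the 9 genes were called lower, where 5.24% of all genes tested were, and 0 were called higher, where 3.58% were. The median difference, transgenic minus wild-type, was −0.38 (log2) over the 9 genes and −0.03 over all genes. The same 3 genes had every transgenic control replicate below every wild-type one, which held for 12.5% of all genes, and the other 6 overlapped. Ier3 fell by 1.90 (SE 0.34, adjusted p = 0.00517), a level of 0.268 times that of wild-type cells (95% interval 0.161 to 0.448). Bcl3 fell by 1.03 (SE 0.17, adjusted p = 0.0034) and Nfkbiz by 0.81 (SE 0.14, adjusted p = 0.00414).

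On slides 1 and 2 the differences were −1.88 and −1.92 for Ier3, −1.05 and −0.99 for Bcl3, and −0.66 and −1.18 for Nfkbiz. Slide 2 holds 1 control array of each genotype, so its value is 1 array against 1. Both transgenic control arrays of slide 1 lie in slide column 4. Without wild-type control replicate 3 none of the 3 calls held (adjusted p = 0.0705 for Ier3, 0.0551 for Bcl3 and 0.0782 for Nfkbiz). Without transgenic control replicate 1, the replicate that correlated less with its group, 5 of the 9 genes were called lower. The share of all genes called lower in that setting is not given. Birc3 differed by −1.40 (adjusted p = 0.00201) and Relb by −0.77 (adjusted p = 0.000711) there. With all replicates Birc3 differed by −0.85 (adjusted p = 0.127) and Relb by −0.38 (adjusted p = 0.297). Without slide column 4, Relb (−0.56, adjusted p = 0.0369) and Nfkbia (−0.48, adjusted p = 0.0411) were called lower as well, on 1 remaining transgenic control array. The remaining differences were −0.12 for Nfkb1 (adjusted p = 0.734), −0.23 for Nfkb2 (0.668), −0.14 for Nfkbia (0.524) and −0.26 for Tnfaip3 (0.32), with intervals that include 0. Of the 8 neutrophil and granulocyte precursor markers tested, 3 (Mpo, Elane and Ctsg) were called higher in the transgenic control group and 0 lower. The summed level of such markers overlapped between the genotypes in control medium. The part of these cells in the differences was not tested.

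With tumour material Nfkbiz was the only one of the 9 genes called lower in transgenic cells, where 2.56% of all genes tested were, and 0 were called higher, where 1.97% were. Nfkbiz fell by 1.25 (SE 0.17, adjusted p = 0.00142), a level of 0.421 times that of wild-type cells (95% interval 0.327 to 0.543). The summed fibroblast marker level was also lower in the transgenic tumour arrays, and its part was not tested. On slide 2 alone the difference was −1.32 (adjusted p = 0.146). Without the repeat arrays it was −0.78 (adjusted p = 0.113), without wild-type tumour replicate 3 −1.11 (adjusted p = 0.0711) and without transgenic tumour replicate 3 −1.11 (adjusted p = 0.0502). Only replicate 3 of wild-type tumour has an array on the slide that holds all transgenic tumour arrays.

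Both transgenic tumour replicates lay below all wild-type tumour replicates for 8 of the 9 genes, the exception being Nfkb2. That pattern held for 26.0% of all genes, and on slide 2 alone both transgenic replicates lay below the wild-type array for the same number of members and for 39.9% of all genes. Apart from Nfkbiz no difference was called. Birc3 differed by −0.77 (95% interval −1.62 to 0.08), Ier3 by −0.43 (−1.32 to 0.46) and Nfkbia by −0.34 (−0.66 to −0.02, adjusted p = 0.238). The others were −0.31 for Nfkb1, −0.28 for Bcl3, −0.25 for Tnfaip3, −0.13 for Relb and 0.25 for Nfkb2, and the Nfkb2 value was −0.30 without the column 4 arrays. Birc3 was called lower without transgenic control replicate 1 (−0.99, adjusted p = 0.0195), which changes only the spread estimate and the slide term.

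**Figure D4:**
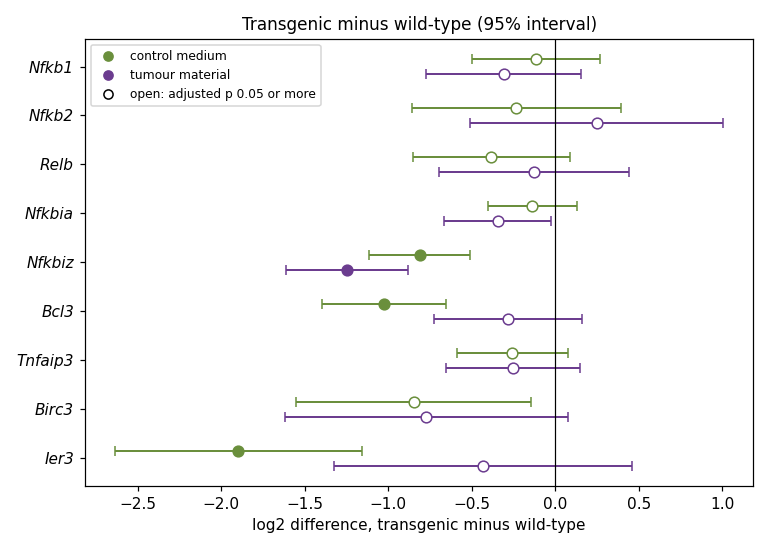
Transgenic minus wild-type difference (log2) for the 9 genes in control medium and with tumour material, as limma estimates with 95% intervals, filled where the adjusted p is under 0.05. Filled points are Nfkbiz in both media (−0.81 and −1.25) and Bcl3 (−1.03) and Ier3 (−1.90) in control medium.

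The size of the response was compared between genotypes by the difference of both responses. It was called for 0 of the 9 genes by limma, where 1.94% of all genes were called in either direction. Ier3 had the largest difference of the 9 genes, its rise being 1.47 larger in transgenic cells (SE 0.52, adjusted p = 0.232). Bcl3 came next, with a rise 0.74 larger in transgenic cells (SE 0.26, adjusted p = 0.225). Without transgenic control replicate 1 both were called, Bcl3 at 0.87 (adjusted p = 0.0198) and Ier3 at 1.75 (adjusted p = 0.0134), and without slide column 4 Bcl3 was (0.78, adjusted p = 0.0121). The Nfkbiz rise was smaller in transgenic cells by a difference of −0.44 (95% interval −0.90 to 0.03, adjusted p = 0.445). For Tnfaip3 the difference was 0.00 (−0.51 to 0.51) and for Nfkbia −0.21 (−0.61 to 0.20), so differences inside those intervals cannot be told from none. The responses share the control replicates with the comparisons of genotype in control medium, and they are not independent of them.

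Across the 11 replicates, profiles of mean-centred log2 values were compared with 10964 other named genes by root mean square difference. Nfkb1 was most like Slc8b1 (0.130) and Nelfcd (0.154), and Nfkb2 most like Irak2 (0.140), which encodes a kinase of the Toll-like receptor pathway. Relb was most like Pecam1 (0.111) and Bcl3 most like Clec4a1 (0.132) and Il17ra (0.147), which encodes a receptor chain for interleukin 17. Nfkbia was nearest to 1700110I01Rik (0.167) and Snx6 (0.173), Nfkbiz to Serpini1 (0.195) and Tnfaip3 to Zic1 (0.188). Birc3 was nearest to Slc36a1 (0.183) and Ier3, with the widest range, to Abtb2 (0.369) and Sphk1 (0.424), which encodes a sphingosine kinase. Among the 9 genes themselves the nearest pairs were Nfkb1 with Nfkb2 (0.312), Relb with Bcl3 (0.325) and Nfkbia with Nfkbiz (0.330). Such nearness is a description, since many genes share the split between media.

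Other genes of the pathway are given by list, beside 23.2% of all genes called higher with tumour material in wild-type and 15.1% in transgenic cells. The share of all genes called lower with tumour material is not given, so counts of genes that fell are not read as a result. How the lists compare with all genes or with the 9 genes was not tested. Of the 5 other subunit and inhibitor genes tested, wild-type cells had 2 higher and 0 lower: Nfkbib, an IkB gene, rose by 1.01 and Rela, the main activating subunit, by 0.25 (adjusted p = 0.0373). Transgenic cells had 2 higher, Nfkbie, another IkB gene (1.02), and Nfkbib (0.81), and 0 lower. Of 12 IKK and upstream kinase genes tested, 7 rose and 1 fell in wild-type cells. Ikbkg, the regulatory IKK subunit, rose by 1.99 and Ikbke, an IKK-related kinase, by 1.53, and Irak1, a kinase below Toll-like receptors, fell by 0.56. In transgenic cells 4 of the kinase genes rose and 0 fell. Without transgenic control replicate 1 the count that rose was 7, and the share of all genes in that setting is not given.

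Of 21 adaptor and ubiquitin ligase genes, 8 rose and 1 fell in wild-type cells and 5 rose and 1 fell in transgenic cells. Traf1, a signalling adaptor of tumour necrosis factor receptors, rose by 3.19 and 4.09. Traf5 fell by 0.72 in wild-type cells and Xiap by 0.41 in transgenic cells. Of 14 other feedback inhibitor genes tested, 8 rose and 2 fell in wild-type cells and 5 rose and 2 fell in transgenic cells. Irak3, an inactive kinase that blocks Toll-like receptor signalling, rose by 3.37 and 3.38, and Tnip1, a partner of A20, by 1.19 and 1.08. Cyld, a deubiquitinase that restrains the pathway, fell by 1.0 and 0.69, and Traf3ip3 by 2.16 and 1.81.

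Of 20 NF-kB target genes tested outside the pathway, 15 were called higher and 1 lower in each genotype. Of the 15, Il6, Cxcl1, Cxcl2 and Ptgs2 were not well above background on any control array and passed the filter only through the tumour groups, so for these the count follows from the filter. Il6, a cytokine, was at least 361-fold higher with tumour material in wild-type and at least 101-fold higher in transgenic cells, with control groups not well above background. Such a bound sets the tumour mean against the dimmest signal well above background on the control arrays, or the probe's own if higher. Nos2, the inducible nitric oxide synthase, rose by 7.86 and 7.50 (log2), with 2 of 3 transgenic control arrays above background. Cd83, an activation marker, was the gene that fell, by 2.16 and 2.58.

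Between genotypes, the share of all genes called was 5.24% lower and 3.58% higher in control medium, and the counts in the pathway lists are not read as a result against it. In control medium Nfkbie fell by 0.79 (adjusted p = 0.00428; not called without slide column 4), Traf1 fell by 1.28, and Map3k8, a kinase held by the Nfkb1 precursor, was higher by 0.71. In these lists 0 or 1 gene per direction was called, and among the other feedback inhibitors 0 were. Of the 20 targets 5 were lower and 1 higher in transgenic control cells. Cd40, a costimulatory receptor, fell by 1.28 and Cflar, an inhibitor of caspase activation, by 0.86. Il1b, an inflammatory cytokine, had a fitted difference of −4.60, but 1 of 3 transgenic control arrays measured it well above background. Il6 and Ptgs2, the other called genes, were not well above background in either group. Vcam1, an adhesion molecule, was higher by 0.95. The count of lower targets was 10 without transgenic control replicate 1. The share of all genes called in that setting is not given, so this count is not read as a result.

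With tumour material 3 targets were lower in transgenic cells, Il6 by a difference of −2.71, Ptgs2 by −1.73 and Cxcl1, a neutrophil-attracting chemokine, by −1.50, and Vcam1 was higher by 1.27. The count of lower targets here was 9 without transgenic control replicate 1, where the share of all genes is likewise not given. Ikbkg fell by 0.85 and Traf5 was higher by 0.59 (not called without slide column 4), and 0 genes were called among the other subunits and IkB genes and the other feedback inhibitors. The difference between responses was called for 2 targets and was 1.35 for Cd40 (larger in transgenic cells, adjusted p = 0.0338). The other was Il1b (fitted difference 3.93, adjusted p = 0.00208), whose transgenic control level rests on 1 of 3 arrays above background. It was called for 0 genes of the 4 other pathway lists.

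**Figure D5:**
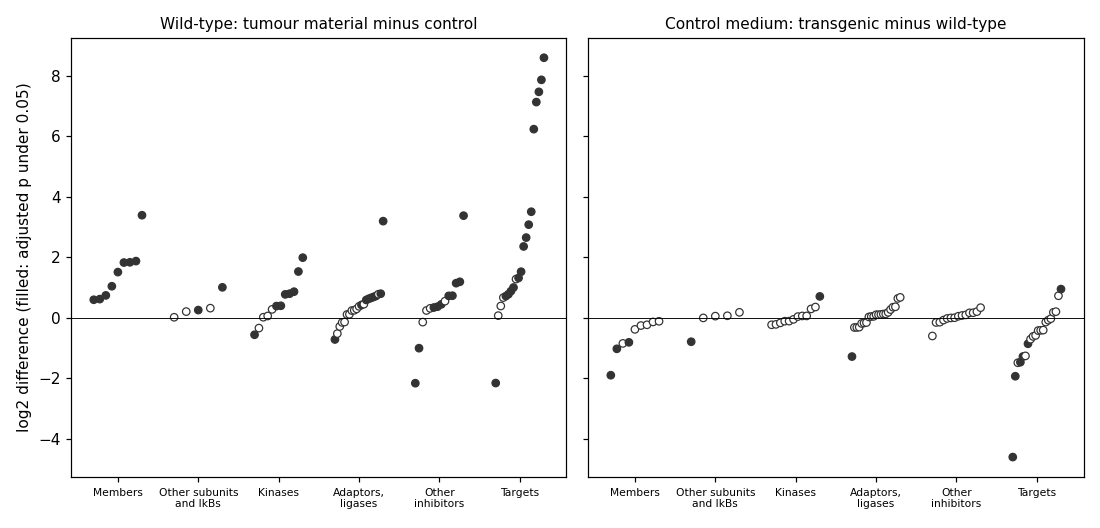
Log2 differences of the 9 genes (Members) and of 5 lists of other NF-kB pathway and target genes, for tumour material minus control in wild-type cells (left) and transgenic minus wild-type in control medium (right). Each point is a gene, filled where the adjusted p is under 0.05. All 9 members are filled above 0 on the left and 3 are filled below 0 on the right. Fitted values of Il6, Cxcl1, Cxcl2 and Ptgs2 rest on control signals not well above background, and on the right that of Il1b rests on 1 of 3 transgenic control arrays above it.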

How the data were processed

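RNA was labelled from 200 ng with Cy3 and hybridised to single-colour Agilent 8x60K mouse arrays, per the labels' protocols. Per the submitters' processing notes, the scanner software was Agilent Feature Extraction 10.7.3.1. The deposited scanner output holds 1 processed signal intensity per spot, background-subtracted and spatially detrended, per the file headers; the array design names genome build mm9. The deposited series matrix holds log2 values of the same arrays and served as an alternative.

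The processed intensities of 14 arrays (62976 spots, 59305 of them not controls) were the starting point. Between 166 and 270 spots per array marked as uneven were left out, spots of a probe were averaged, and each array's log2 signals were set against its 75th percentile (signal 83.9 to 144). Symbols came from RefSeq accessions (28311 probes with 1 symbol, 27323 with none). The filter on dim probes kept 20207, those above background throughout 1 group or more, and a gene's brightest probe represents it (15833 genes).

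The labels give genotype, medium and replicate number, and arrays with -2 at the end of their title were taken as second arrays of a replicate, which makes 11 replicates. The model was fitted in limma 3.58.1 under R 4.3.3. It held 4 group means, a slide term and a random effect of replicate (within-replicate correlation 0.0716; residual degrees of freedom 9), and p-values were adjusted over all genes by Benjamini-Hochberg, with calls under 0.05. At that correlation the 3 repeat arrays count almost as separate samples. The p-values therefore mix spread between arrays with spread between replicates. Each group has 2 or 3 replicates, whose origin from separate animals is not stated, and this number limits the precision. Alternatives were background correction by normexp (offset 50), normalization, probe filters, probe choice, slide handling, slide column 4 and leaving out replicates. The scanner files hold median and not mean spot signals, so normexp used the median signal.

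The genes, lists and tests were chosen with earlier results of these data known. From each pathway list up to 4 passing genes with the largest change were named, with any gene alone in its direction, and for each gene up to 3 with the most alike profile. Some counts without transgenic control replicate 1 or slide column 4 were added after seeing the data. Shares of all genes called are given for the main fit only, so counts under other settings have no share beside them. No protein sequence was used here.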

Additional observations from a re-analysis of the deposited data

How the results depend on the processing

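Of 1183 values of single genes under 27 alternative settings, 1073 kept their direction and side of the threshold, 61 lost a call, 10 gained one and 39 changed sign, none of them a called value. Members higher in the wild-type response were 4 on slide 2 alone, which holds 1 array of each wild-type group, against 9, and 7 or 8 in 18 other settings, because Relb, Nfkb2 or both lost the call or, with every array above background, Ier3 had no value. Members higher in the transgenic response were 6 without transgenic control replicate 3, and 7 on slide 2 alone, without the repeat arrays and without transgenic tumour replicate 3, against 9. Over all settings, listed here or not, Relb lost this call in 11, Nfkb1 in 3, and Nfkb2 and Birc3 in 2 each. Members lower in the transgene effect in control medium were 0 on slide 2 alone and 5 without slide column 4 against 3, and leaving out replicates gave 0 (without wild-type control replicate 3) to 5 (without transgenic control replicate 1). Members lower in the transgene effect with tumour material were 2 with no slide term, 0 on slide 2 alone, 2 without slide column 4 and 0 without the repeat arrays against 1, and leaving out replicates gave 0 to 2. Members higher in the difference between responses were 1 without slide column 4 against 0, and up to 2 when replicates were left out. The cause was not tested. The labels do not say that a replicate number marks a shared animal or day, and same-numbered samples did not all deviate together (correlations −0.0116, −0.14 and 0.2025 in wild-type cells); with the number as a replicate block, Nfkb2 in wild-type cells lost its call (0.74, adjusted p = 0.0558 by limma) and no other call of the 9 genes changed.

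Differences that changed sign were all uncalled. In control medium the transgene effect on Nfkbia was 0.10 with normexp, 0.0099 on slide 1 alone and without the repeat arrays, and −0.26 to 0.0038 with replicates left out. That on Nfkb1 was 0.22 on slide 2 alone, 0.042 without slide column 4 and −0.35 to 0.014 with replicates left out, and that on Tnfaip3 was 0.19 on slide 2 alone and 0.11 without slide column 4. With tumour material the effect on Nfkb2 was −0.33 with slide column 4 as a term, −0.30 without it, −0.049 without the repeat arrays and −0.28 to 0.50 with replicates left out, and without the repeat arrays Nfkbia read 0.057 and Relb 0.17. The difference between responses of Tnfaip3, 0.00, read −0.069 with normexp, −0.019 with no filter, −0.34 on slide 2 alone, −0.012 with column 4 as a term, −0.12 without it and without the repeat arrays, −0.042 with the replicate block, and −0.15 to 0.28 with replicates left out. That of Nfkbia was 0.033 on slide 2 alone, 0.041 without column 4 and 0.047 without the repeat arrays. That of Birc3 was −0.11 with normexp and −0.28 to 0.41 with replicates left out, that of Nfkb1 −0.37 to 0.073 and that of Nfkb2 −0.012 to 0.73. The filter that asks for every array to be above background gave no Ier3 value.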
